A study of Mus musculus with 41 samples.

Results

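The genes described here are 44 members of the mitotic programme, chosen by symbol for their known roles in mitosis, and all 44 were among the 24371 genes in each of the 4 deposited tables of fetal mouse lung RNA. Mesenchyme came from Twist2Cre;Rosa26mT/mG fetuses, in which Cre driven from the Twist2 locus turns cells from tdTomato to GFP. Pregnant dams were injected intraperitoneally at E18.5 with 1 mg/kg dexamethasone, a synthetic glucocorticoid, or with saline, and tdTomato-/GFP+ cells were sorted from lungs taken 2 hours later. Lungs of the same genotype were pooled, and there were 4 dexamethasone pools and 2 saline pools. A further E18.5 set held 1 library of CD106+ cells with 1 mg/kg dexamethasone, for which the labels give no hours after injection, 2 libraries of CD106+ cells and 2 of CD106- cells, both with no treatment named. The general bulk protocol names Twist2Cre;Rosa26mT/mG and Rosa26mT/mG mice, and the labels do not say from which genotype or strain the CD106 libraries came. CD106 is the adhesion protein encoded by Vcam1. Single cells were captured on the C1 system from lungs of wild type C57Bl6/J fetuses whose dams were injected at E17.5 and whose lungs were taken 24 hours later, with 15 cells after 2 mg/kg dexamethasone and 11 after saline. A further 4 chromatin accessibility samples were not analysed here.

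Cells enter mitosis when cyclin B-bound Cdk1 becomes active, with the Polo and Aurora kinases, and condensin folds the replicated chromosomes. Kinetochores then attach chromosomes to spindle microtubules while the spindle checkpoint restrains the anaphase-promoting complex, whose activation by Cdc20 destroys securin and cyclin B so that sister chromatids part and cytokinesis follows. Most of these genes are transcribed late in the cycle, so their RNA is high in tissue with many dividing cells, as in growing fetal lung, and low in resting tissue.

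Promoters of the members are shown first, because a shared short element is what late cell cycle genes are known for: the cell cycle homology region, with core letters TTTGAA or, in a variant, TTTAAA, and nearby CCAAT boxes. RefSeq promoters (GRCm38.p6, 250 bases before to 50 after the transcript start in the table) were present for 38 of the 44 members, the others being Kif20a, Incenp, Aurkb, Smc4, Ccna2 and Tpx2. The printed stretches are the 100 bases before the start, 5′ to 3′ on the gene's strand, for Mki67, Top2a, Cdk1 and Cdc20, well-known members among those described below, with any TTTGAA or TTTAAA core, read on either strand, in capitals. The start is the one in the table, which for Mki67 and Top2a lies inside the gene's outer span.
Mki67, chr7:135716380-135716479, minus strand: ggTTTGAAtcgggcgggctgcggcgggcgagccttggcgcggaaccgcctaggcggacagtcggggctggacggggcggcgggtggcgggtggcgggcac
Top2a, chr11:99024190-99024289, minus strand: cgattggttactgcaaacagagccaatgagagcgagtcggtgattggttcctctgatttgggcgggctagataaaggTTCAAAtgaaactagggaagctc
Cdk1, chr10:69352913-69353012, minus strand: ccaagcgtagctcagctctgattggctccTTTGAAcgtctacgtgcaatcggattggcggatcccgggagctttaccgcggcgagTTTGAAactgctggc
Cdc20, chr4:118437344-118437443, minus strand: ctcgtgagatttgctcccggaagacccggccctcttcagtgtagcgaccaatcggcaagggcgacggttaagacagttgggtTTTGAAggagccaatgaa

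Counting a gene once if any of its promoters in the table held the letters on either strand, TTTGAA was found for 28 of the 38 members (73.7%), against 20.2% of the 27025 genes in the table. CCAAT was found for 76.3% of members and 41.1% of all genes. TTTAAA was found for 23.7% of members and 14.9% of all genes. The E2F letters TTTGGCGC and TTTCCCGC were each found for 1 member (2.63%), against 0.585% of all genes for TTTGGCGC and 1.24% for TTTCCCGC. The consensus glucocorticoid response element, the hexamer AGAACA and its reverse complement with 3 bases between, was found for 0 of the 38 members and for 0.0111% of all genes. From 100 bases before to 50 after the start, TTTGAA was found for 26 of the 38 members (68.4%), against 9.23% of all genes. Within the 50 bases before the start it was found for 8 members, a window for which no share of all genes was computed. These matches describe letters in a window.

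The summed level of the 44 members, in CPM (reads scaled to the same library total), separated the sorts more widely than the treatments within mesenchyme. It was 1337, 1641, 2154 and 1454 CPM in the dexamethasone mesenchyme pools, against 1838 and 3703 CPM in the saline pools. It was 3291.5 CPM in the CD106+ dexamethasone library, against 11835.5 and 9485 CPM in the CD106+ libraries, while the CD106- libraries held 11087 and 10024 CPM. Each of 41 members was higher in all 4 CD106 libraries without a named treatment than in all 6 mesenchyme pools, the exceptions being Ccnb2, Cks2 and Pttg1. These sorts were deposited in separate tables and the genotype of the CD106 libraries is not given, so this ordering is a description with no test. The sorts also differed in cell type markers. The 8 epithelial markers summed to 2102 to 5077 CPM in those 4 CD106 libraries and to 2.60 to 178 CPM in the mesenchyme pools. In all bulk comparisons, fewer dividing cells and less of this RNA per cell cannot be told apart.

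**Figure D1:**
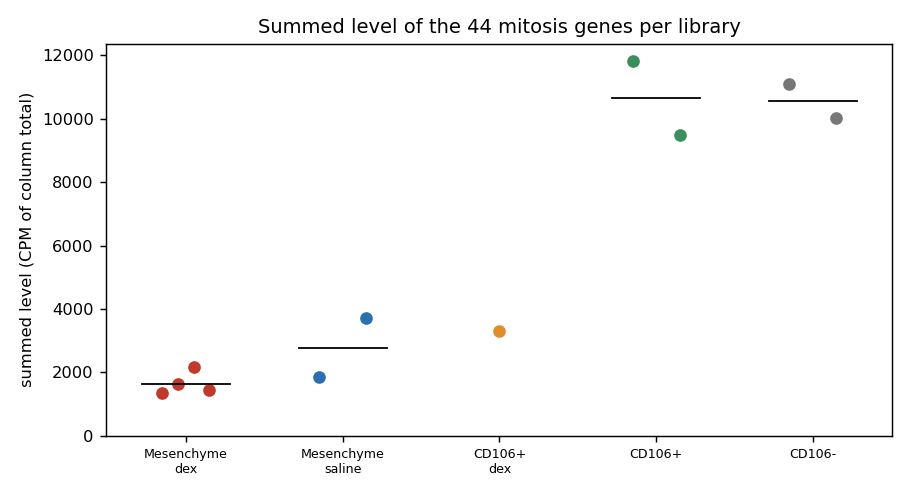
Summed level of the 44 mitosis genes in each bulk library, in CPM of the library total (vertical axis), by group (horizontal axis). Points are libraries and lines are group means where a group has more than 1 library; the CD106+ dexamethasone library at 3291.5 CPM stands far under both CD106+ libraries, and the saline mesenchyme pools at 1838 and 3703 CPM stand far apart.

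Library totals were 1670896 to 4224245 counts in mesenchyme, 4987175 to 7133941 in the CD106+ and CD106- libraries and 3790544 in the CD106+ dexamethasone library. No label ties the pools or fractions to separate litters, so the spread behind each p-value may be technical. Of 10 known glucocorticoid target genes, edgeR called 7 higher in dexamethasone mesenchyme, where 1.95% of all genes tested were. Their list had a median log2 fold change of 1.81 and was chosen with earlier results of these data known. The 5 mesenchyme markers were detected in every mesenchyme pool and summed to 8222 to 9341 CPM in dexamethasone pools and 9314 and 12016 CPM in saline pools. Vcam1, the sorted marker, stood at 551 and 687 CPM in CD106+ libraries and at 1.35 and 3.00 CPM in CD106- libraries. The mesenchyme pools differed in sex makeup: the X-inactivation RNA Xist stood at 6.59 to 11111 CPM in dexamethasone pools and 20880 and 33133 CPM in saline pools, and the Y-linked Ddx3y at 74.4 to 174 CPM in dexamethasone pools and 0 and 1.20 CPM in saline pools.

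In mesenchyme 2 hours after injection, Mki67 was the 1 member that edgeR called, and it was lower with dexamethasone. Mki67 encodes Ki-67, which coats mitotic chromosomes and is the standard marker of cycling cells (chromosome 7, 135689784 to 135716450, GRCm38.p6). It stood at 385, 422, 612 and 359 CPM in the dexamethasone pools, against 765 and 1092 CPM in the saline pools. The groups did not overlap, and the log2 fold change was -0.996 (SE 0.23, edgeR adjusted p = 0.0248, n = 4 and 2). Of the 44 members, 43 passed the filter on low counts. By edgeR 1 of these was called lower, where 0.740% of all 11356 genes tested were called lower, and 0 were called higher, where 1.95% of all genes were. An unadjusted p under 0.05 by edgeR was reached by 14 members, and by 13.8% of all genes tested. DESeq2 called Mki67 lower and Smc4 higher, where it called 0.713% of 19216 genes lower and 1.88% higher. The member left out by the filter was Cks2, a small partner of Cdk1, with 1.42, 2.38, 2.70 and 2.64 CPM in dexamethasone pools and 3.59 and 9.46 CPM in saline pools.

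The call on Mki67 is near the limit of this design. The adjusted p was 0.217 without saline pool 2 and 0.0796, 0.0678 and 0.0936 without dexamethasone pool 1, 2 or 4, and the log2 fold change then ran from -0.95 to -0.76. Markers of cartilage moved with the groups: the 8 chondrocyte markers summed to 8.52, 37.0, 340 and 57.7 CPM in dexamethasone pools, against 1417 and 551 CPM in saline pools, and Sox9, Matn1 and Col11a2 were at 0 in some dexamethasone pools and in no saline pool. With the mean log2 level of those markers as a covariate Mki67 had a log2 fold change of -0.50 (SE 0.36, edgeR adjusted p = 0.998). That fit called 0 of all 11356 genes lower, so it cannot tell whether Mki67 differed at equal marker levels. With Xist as a covariate Mki67 had a log2 fold change of -1.17 (edgeR adjusted p = 0.0951). Over all alternatives its adjusted p ran from 0.0012 to 0.998. The 6 smooth muscle markers also summed lower, to 1059 to 1164 CPM in dexamethasone pools and 1666 and 2017 CPM in saline pools. The part of these cell types and of sex in the result was not tested beyond those fits.

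Smc4, an ATPase core subunit of condensin (chromosome 3, 69004738 to 69034623), ran the other way. It stood at 337, 399, 423 and 331 CPM in dexamethasone pools and at 213 and 255 CPM in saline pools. It was the 1 member whose dexamethasone pools all lay above both saline pools, where 9.99% of all genes did so. The log2 fold change of 0.73 (SE 0.22) did not pass by edgeR (adjusted p = 0.0874), and DESeq2 gave an adjusted p of 0.0159, the lowest of its alternatives, which ran up to 0.637. Smc2, which pairs with Smc4 in condensin, had a log2 fold change of -0.76 (SE 0.41, edgeR adjusted p = 0.465), and the condensin subunits Ncapd2, Ncapg and Ncaph had -0.52, -1.37 and -0.63, none past the threshold.

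Top2a, the topoisomerase that untangles sister chromatids, stood at 85.2, 82.9, 140 and 95.03 CPM in dexamethasone pools and at 124 and 296 CPM in saline pools. Dexamethasone pool 3 lay above saline pool 1, so the groups overlapped (log2 fold change -0.98, SE 0.30, edgeR adjusted p = 0.099). Kif11, the motor that pushes spindle poles apart, stood at 34.6, 33.0, 47.7 and 46.4 CPM in dexamethasone pools and at 48.5 and 112.7 CPM in saline pools, without overlap (edgeR adjusted p = 0.175). Saline pool 1 was thus close to the dexamethasone pools for Kif11 and saline pool 2 far above them. Tpx2, which activates Aurora A on the spindle, had 13.5, 18.7, 32.9 and 10.9 CPM in dexamethasone pools and 26.9 and 67.5 CPM in saline pools. Anln, the cleavage furrow scaffold anillin, had 38.1, 35.7, 60.8 and 38.5 CPM in dexamethasone pools and 45.5 and 137 CPM in saline pools. For both, dexamethasone pool 3 lay above saline pool 1 and under saline pool 2.

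**Figure D2:**
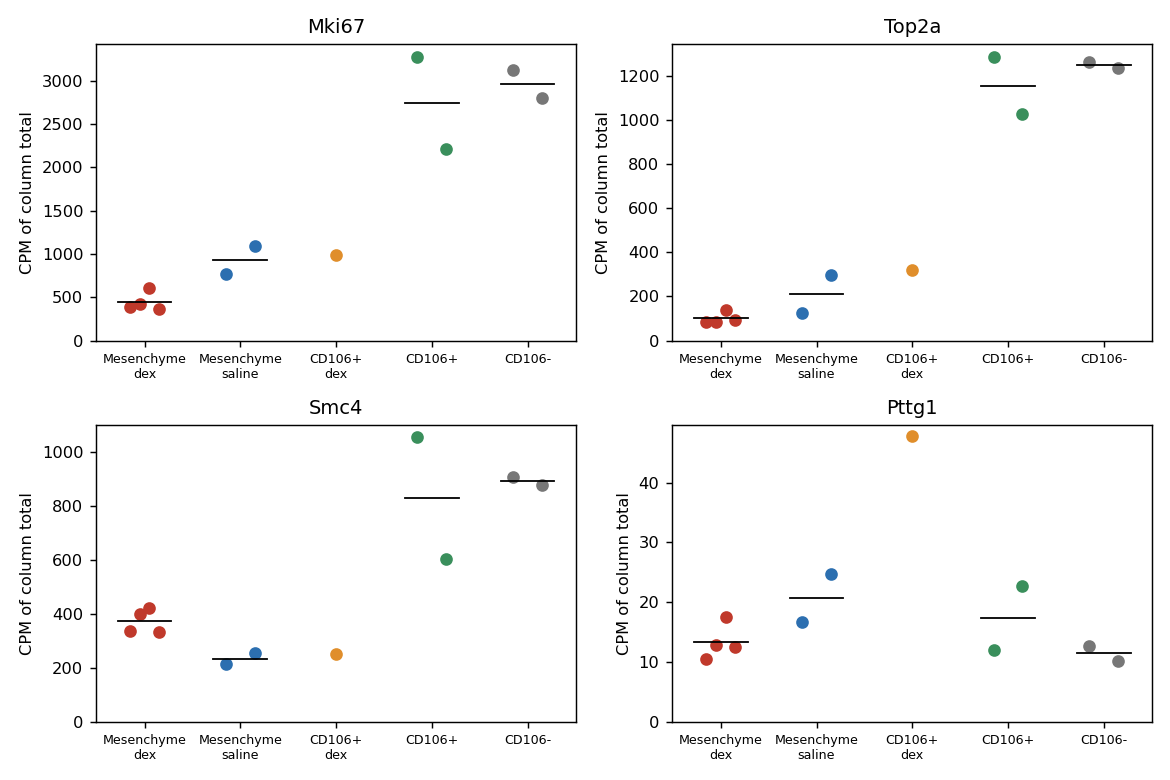
Level of Mki67, Top2a, Smc4 and Pttg1 in each bulk library (vertical axis, CPM of the library total, from 0) by group (horizontal axis). Points are libraries and lines are group means; in mesenchyme Mki67 is lower and Smc4 higher in all 4 dexamethasone pools than in both saline pools, and Pttg1 is highest in the CD106+ dexamethasone library at 47.8 CPM.

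Among the other members with small p, Birc5, the survivin subunit of the chromosomal passenger complex, had 3.55, 5.10, 13.5 and 5.28 CPM in dexamethasone pools and 29.3 and 13.6 CPM in saline pools. Birc5 and Spc25 were the members tested whose saline pool 1 exceeded saline pool 2. Incenp, the scaffold of that complex, had 4.02, 10.2, 8.11 and 6.03 CPM in dexamethasone pools and 12.0 and 27.6 CPM in saline pools. The checkpoint kinase Bub1 had 5.92, 18.01, 14.4 and 15.8 CPM in dexamethasone pools and 20.9 and 42.4 CPM in saline pools. The dexamethasone and saline pools did not overlap for Birc5, Incenp or Bub1. The kinetochore motor Cenpe had 49.0, 64.2, 78.4 and 53.6 CPM in dexamethasone pools and 55.1 and 204 CPM in saline pools, with saline pool 1 inside the dexamethasone range. The log2 fold changes of Birc5, Incenp, Bub1 and Cenpe were -1.62, -1.42, -1.16 and -0.999 (SE 0.59, 0.55, 0.47 and 0.37), and none passed the threshold.

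By role, the fitted log2 fold changes in mesenchyme were mostly negative and mostly not past the threshold. The median was -1.28 over the 4 subunits of the chromosomal passenger complex, which corrects faulty attachments, and -1.08 over the 6 members of the midzone and cytokinesis group. It was -0.99 over 6 centromere and kinetochore genes, -0.93 over 4 genes of anaphase onset and exit, -0.75 over 5 spindle assembly genes and -0.69 over 8 genes of chromosome structure. It was -0.64 over the 6 cyclins and entry kinases tested and -0.59 over the 4 spindle checkpoint genes, of which Bub1b stood at 0.047. Over all 43 members tested the median was -0.92, with 41 values under 0, beside a median of -0.012 over all genes tested.

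That median rested on saline pool 2. Saline pool 2 lay above all 4 dexamethasone pools for 40 of the 43 members, whereas saline pool 1 lay above them for 11, inside their range for 24 and under them for 8. Without saline pool 2 the median was -0.054, with 22 values under 0 and 21 above, and 0 members were called by edgeR. Without saline pool 1 the median was -1.29 and 5 members were called lower, namely Anln, Cenpe, Cenpf, Mki67 and Top2a, where 0.397% of 12342 genes were called lower in that fit. For 11 members both saline pools lay above every dexamethasone pool, where 13.0% of all genes did so, and these were Mki67, Ncaph, Aurkb, Birc5, Incenp, Bub1, Spc25, Kif11, Ect2, Cdc20 and Cdca3. Which saline pool is closer to the usual level was not tested.

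Other cell cycle lists gave few calls in mesenchyme, where edgeR called 0.740% of all genes tested lower and 1.95% higher. Of 36 DNA replication genes tested, 1 fell: Mcm5, a subunit of the replicative helicase, stood at 5.21, 5.10, 9.01 and 4.90 CPM in dexamethasone pools and at 18.6 and 30.0 CPM in saline pools (log2 fold change -1.94, SE 0.50, edgeR adjusted p = 0.0449). The replication list had a median of -0.81. Of 55 further mitosis genes 0 were called by edgeR, with a median of -0.64. Stil, a centriole duplication factor, had the smallest p among these 55 (log2 fold change -1.37, edgeR adjusted p = 0.0681). It was the 1 of them called lower by DESeq2, where 0.713% of all genes were. An unadjusted p under 0.05 by edgeR was reached by 14 of the 55, by 6 of the 36 replication genes and by 13.8% of all genes tested. Neither edgeR nor DESeq2 made a call among 19 transcriptional regulators of the cycle, 13 subunits of the anaphase-promoting complex or 9 cohesin genes, of which 5, 0 and 0 had an unadjusted p under 0.05 by edgeR.

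Of 9 G1 cyclins and kinases tested edgeR called 1 lower and 1 higher, and likewise of 13 arrest genes, where 0.740% of all genes were called lower and 1.95% higher. Cdkn1a, which encodes the CDK inhibitor p21, stood at 78.4, 72.1, 44.1 and 55.8 CPM in dexamethasone pools and at 12.0 and 5.35 CPM in saline pools, and rose by 2.95 on the log2 scale (SE 0.45, edgeR adjusted p = 8.4e-04). Ccnd2, which encodes cyclin D2, had 73.6, 54.7, 82.9 and 83.7 CPM in dexamethasone pools and 192 and 138 CPM in saline pools, and fell by 1.11 (edgeR adjusted p = 0.0284). Its partner kinase Cdk6 had 303, 239, 317 and 246 CPM in dexamethasone pools and 141 and 153 CPM in saline pools, and rose by 0.97 (edgeR adjusted p = 0.0282). The antiproliferative gene Btg2 fell by 1.10 (edgeR adjusted p = 0.0121). In all 4 genes the groups did not overlap.

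In CD106+ cells with dexamethasone nearly every member stood lower than in CD106+ cells without a named treatment. The 1 dexamethasone library lay under both CD106+ libraries for 42 of 44 members, where 45.2% of the 13605 genes at a mean of 1 CPM or more did so, and above both for Pttg1 and Cks2, where 32.4% did so. Log2 ratios of CPM plus 1, the dexamethasone library over the mean of the CD106+ libraries, had a median of -1.76 over the members beside -0.20 over all genes. A single treated library gives no replicate check, so these are values with no test.

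The deepest ratio belonged to Spc25, a subunit of the Ndc80 complex that grips microtubules at the kinetochore (chromosome 2, 69193895 to 69206213). It stood at 2.37 CPM in the dexamethasone library, against 56.9 and 59.6 CPM in the CD106+ libraries, a log2 ratio of -4.13. The other Ndc80 subunits in the list, Ndc80 and Nuf2, had log2 ratios of -1.64 and -1.33. Ncapg, a condensin subunit, had 9.62 CPM in the dexamethasone library, against 150 and 119 CPM in CD106+ libraries. Kif2c, a kinesin that takes microtubules apart at centromeres, had 2.11 CPM in the dexamethasone library, against 19.4 and 34.3 CPM. Aurora kinase B, encoded by Aurkb, had 13.2 CPM in the dexamethasone library, against 80.2 and 94.8 CPM. Ncapg carried fractional counts in every bulk library, as did Ccna2, so reads shared with other loci may enter their values.

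Mki67 stood at 985 CPM in the CD106+ dexamethasone library, against 3276 and 2215 CPM in the CD106+ libraries, and Top2a at 321 CPM, against 1284 and 1026.5 CPM. Every role group had a negative median log2 ratio: -2.07 for the spindle checkpoint, -1.95 for spindle assembly, -1.92 for centromere and kinetochore, -1.82 for anaphase onset and exit, -1.72 for chromosome structure, -1.68 for midzone and cytokinesis, -1.54 for cyclins and entry kinases and -1.31 for the chromosomal passenger complex. Within these groups Hmgb2, Ncaph and Incenp had log2 ratios nearest 0 on the negative side, at -0.83, -0.90 and -0.92.

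The 2 exceptions were Pttg1 and Cks2. Pttg1 encodes securin, which holds separase inactive until anaphase (chromosome 11, 43420244 to 43427463), and it stood at 47.8 CPM in the dexamethasone library, against 12.0 and 22.7 CPM in the CD106+ libraries. Cks2 stood at 14.0 CPM in the dexamethasone library, against 10.0 and 9.81 CPM. Their log2 ratios were 1.41 and 0.46. Pttg1 was also a member whose mesenchyme pools overlapped the CD106 libraries, with 10.4 to 17.6 CPM in dexamethasone mesenchyme, 16.8 and 24.7 CPM in saline mesenchyme and 12.7 and 10.2 CPM in CD106- cells.

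**Figure D3:**
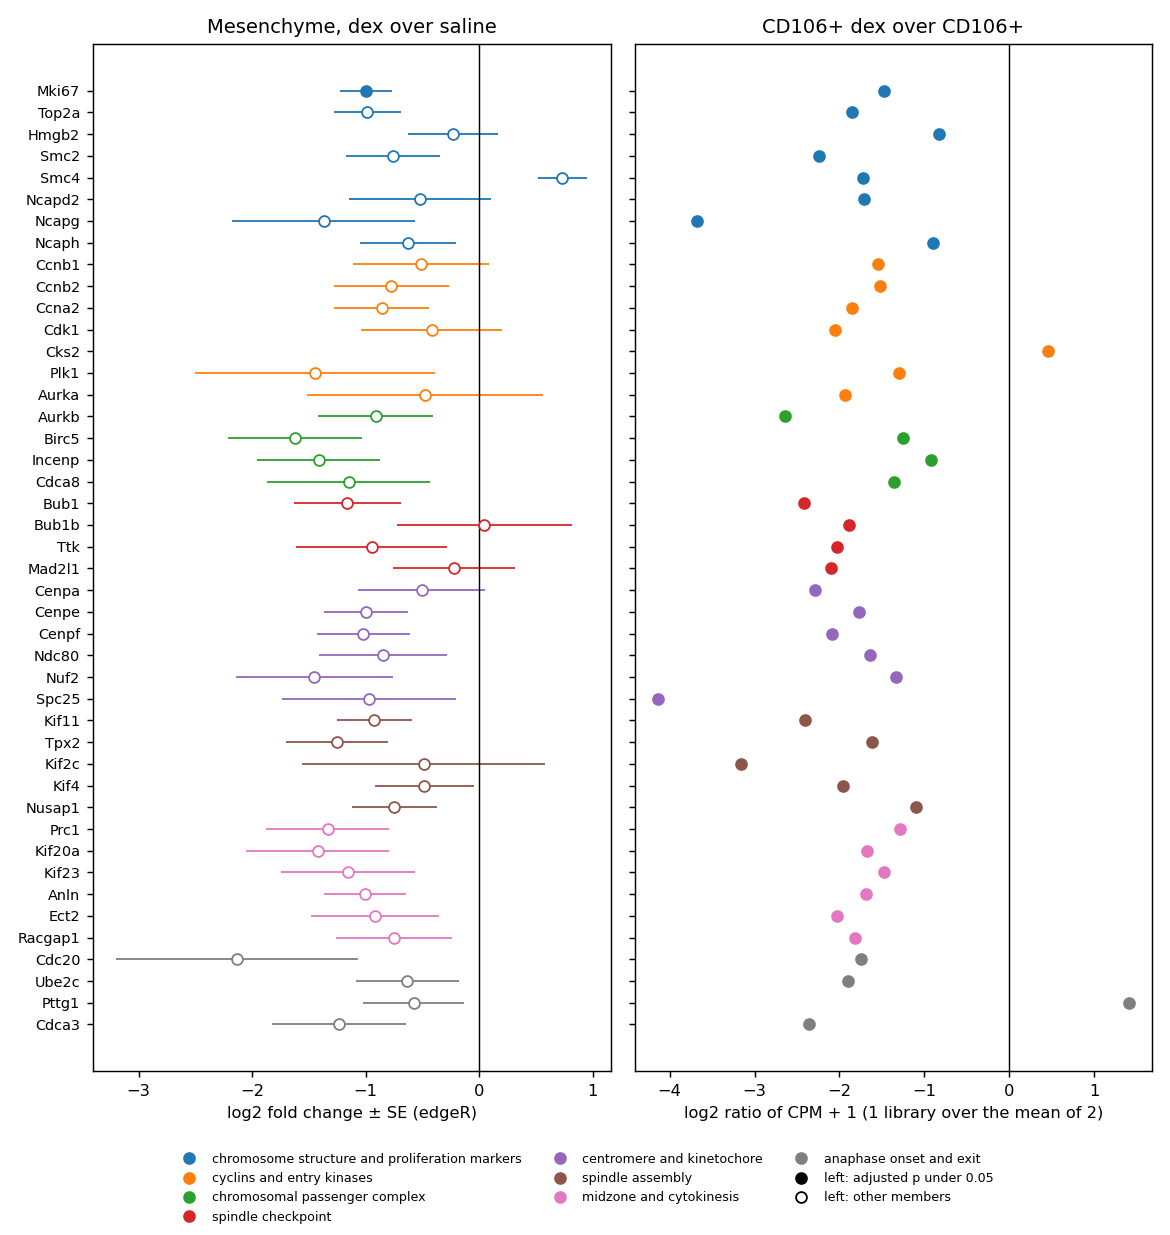
Log2 difference of each mitosis gene (rows, coloured by role) with dexamethasone against its comparison group: left, mesenchyme pools with edgeR log2 fold changes and bars of 1 SE, filled where the adjusted p was under 0.05; right, the log2 ratio of CPM plus 1 of the 1 CD106+ dexamethasone library over the mean of the CD106+ libraries, with no error. Mki67 at -0.996 is the filled point on the left, Smc4 at 0.73 lies right of 0 there, and Pttg1 at 1.41 and Cks2 at 0.46 lie right of 0 on the right; Cks2 was not tested in mesenchyme.

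A single edgeR fit of all 11 bulk libraries, in which the lone library is assumed to vary like the others, called 12 members lower, where 1.62% of 14722 genes were called lower, and 0 higher, where 3.82% were. These were Aurkb, Bub1, Cdca3, Cenpa, Ect2, Kif11, Kif4, Mki67, Smc4, Spc25, Top2a and Ube2c, and Aurkb, Kif11 and Spc25 were called also when either CD106+ library was left out. Without CD106+ library 1 the count was 3, where 0.478% of all genes were called lower, and without CD106+ library 2 it was 7, where 1.27% were. In this fit Spc25 had a log2 fold change of -4.44 (SE 0.85, edgeR adjusted p = 0.0023), Kif11 -2.28 (SE 0.44, edgeR adjusted p = 0.0025) and Aurkb -2.56 (SE 0.58, edgeR adjusted p = 0.0088).

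The CD106+ dexamethasone library also differed in cell type markers. The 7 endothelial markers, all detected there, summed to 2309 CPM, against 116 and 93.5 CPM in the CD106+ libraries, with Pecam1 at 508 CPM, against 16.54 and 22.1 CPM. The 7 immune markers summed to 108 CPM, against 7.62 and 16.3 CPM, with Cd52 at 0. The 8 epithelial markers summed to 1228 CPM, against 2102 and 3817 CPM, and Vcam1 stood at 268 CPM, against 551 and 687 CPM. Vcam1 is 1 of 7 matrix fibroblast markers, which together summed higher, to 7445 CPM, against 2554 and 5865 CPM. Of these 7, 3 lay above both CD106+ libraries, where 32.4% of all genes at a mean of 1 CPM or more did so. Below both lay 2, where 45.2% of all genes did so. The part of these differences, and of handling that differs between the deposited tables, in the lower mitosis levels was not tested.

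Other genes of the dividing cell also stood lower in that library. Of 40 DNA replication genes 38 lay under both CD106+ libraries, with a median log2 ratio of -1.53. Of 67 further mitosis genes 64 did, with a median of -1.56. Among all 13605 genes at a mean of 1 CPM or more 45.2% did so, with a median of -0.20. The 13 subunits of the anaphase-promoting complex, which are present through the cycle, had a median of -0.25 and the 9 cohesin genes -0.46. Arrest genes had a median of 0.48 over 15 genes at 1 CPM or more, with Cdkn1a at 196 CPM in the dexamethasone library, against 7.02 and 11.9 CPM in the CD106+ libraries. Glucocorticoid targets had a median of 1.89.

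The fit of all 11 libraries also gave the difference between the dexamethasone effects, mesenchyme minus CD106+ cells. Smc4 was the 1 member called higher, where 0.774% of all genes were, and 0 were called lower, where 1.75% were. The contrast for Smc4 was 2.37 on the log2 scale (SE 0.46, edgeR adjusted p = 0.0062), with a log2 fold change of -1.60 on its CD106+ side. It was 1.78 without CD106+ library 1 (edgeR adjusted p = 0.0298), although the call on Smc4 within CD106+ cells was lost in that fit, and 2.78 without CD106+ library 2 (edgeR adjusted p = 0.0018). Without dexamethasone pool 4 the contrast called Smc4 and Spc25 higher, where 0.603% of all genes were called higher in that fit. The median contrast over the 44 members was 0.88, and 1.62 without saline pool 2, which leaves 1 saline pool. In the fit of all 11 libraries Spc25 followed Smc4 at 3.52 (SE 0.96, edgeR adjusted p = 0.0505) and Pttg1 stood at -2.19 (SE 0.70, edgeR adjusted p = 0.109). This contrast compares sorts from separate deposited tables, and its CD106+ side rests on the lone library, which no fit can leave out.

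**Figure D4:**
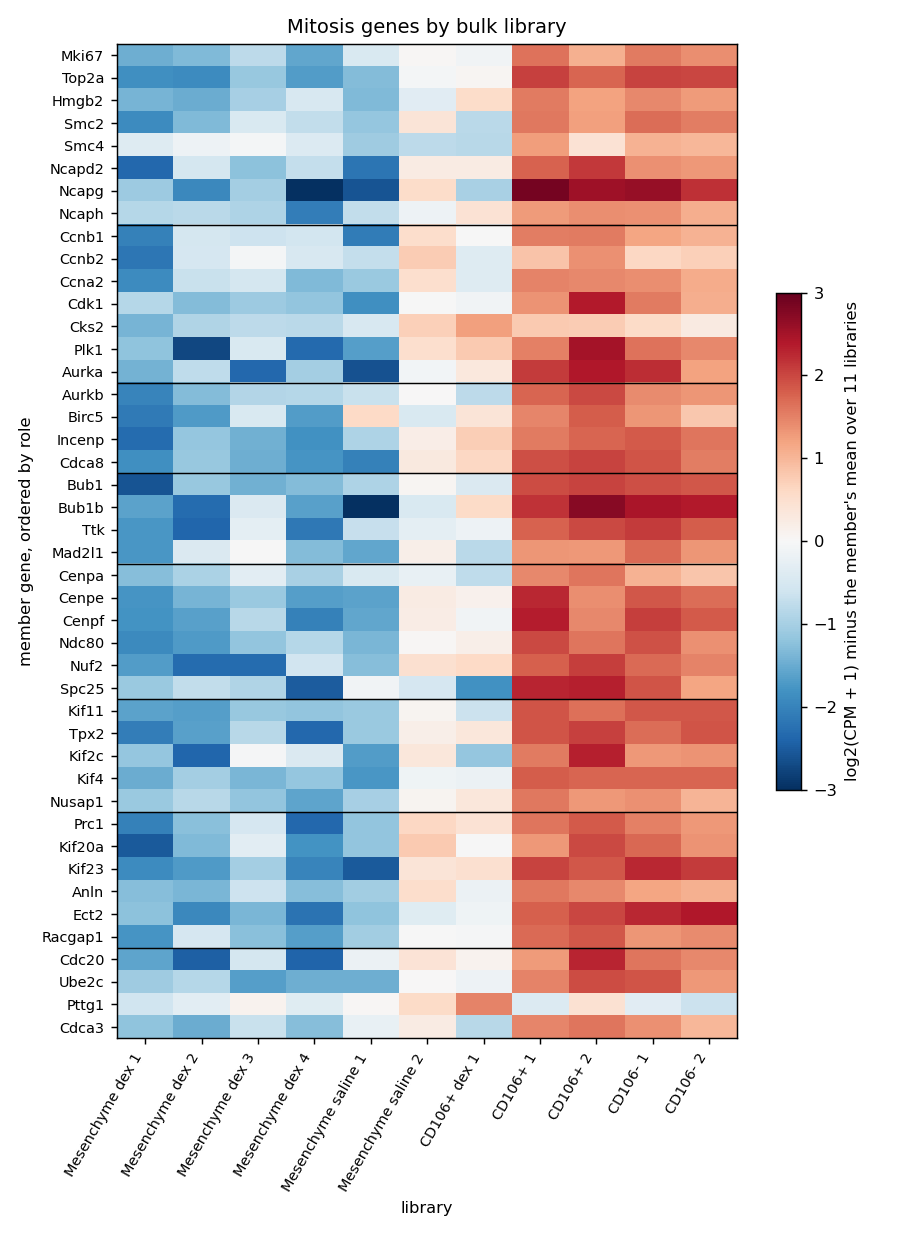
Level of each mitosis gene (rows, ordered by role, lines between roles) in the 11 bulk libraries (columns), as log2(CPM + 1) minus that gene's mean over the libraries; red is above and blue below the gene's own mean. The CD106+ and CD106- columns are red for nearly all rows, Pttg1 being the clearest exception, saline mesenchyme pool 2 resembles the CD106+ dexamethasone library in its paler shades, and saline pool 1 is mostly blue like the dexamethasone mesenchyme pools.

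CD106+ and CD106- cells gave no call among the members. By edgeR 0 of 44 were lower, where 3.35% of the 12364 genes tested were, and 0 were higher, where 6.67% were, with 2 members at an unadjusted p under 0.05, which 19.8% of all genes reached. DESeq2 called 0 members, with 0 at an unadjusted p under 0.05, which 13.7% of all genes reached. The median log2 fold change was 0.19 beside 0.046 over all genes. Both CD106+ libraries lay above both CD106- libraries for 18 members, where 25.7% of all genes did so, and under them for Mad2l1, Kif23 and Ect2, where 22.1% did so. The sorts differed in cell type markers. The 5 mesenchyme markers summed to 4346 and 6573 CPM in CD106+ libraries and to 722 and 1064 CPM in CD106- libraries. The 8 epithelial markers summed to 2102 and 3817 CPM in CD106+ libraries and to 5077 and 4464 CPM in CD106- libraries. The part of cell type in the member levels was not tested.

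The 2 members with a small p were Spc25 and the condensin subunit Ncapd2. Spc25 had 56.9 and 59.6 CPM in CD106+ cells and 43.5 and 26.0 CPM in CD106- cells (log2 fold change 0.71, SE 0.32, edgeR adjusted p = 0.197). Ncapd2 had 107 and 139 CPM in CD106+ cells and 81.2 and 78.1 CPM in CD106- cells (log2 fold change 0.58, SE 0.27, edgeR adjusted p = 0.217). The groups did not overlap for either gene. Mki67 had 3276 and 2215 CPM in CD106+ cells and 3126 and 2800 CPM in CD106- cells, so CD106- cells lay inside the spread of CD106+ cells. The CD106+ libraries differed from each other for several members: Cenpf had 835 and 440 CPM, Cenpe 816 and 450 CPM and Smc4 1058 and 604 CPM. Without CD106+ library 1, edgeR called Smc4, Cenpf and Mki67 lower, where 10.2% of all genes were called lower in that fit, and Cdk1 and Ncapd2 higher, where 10.9% were.

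Of the other cycle lists, 0 of 40 replication genes and 0 of 67 further mitosis genes were called between CD106+ and CD106- cells by edgeR or DESeq2, with 0 and 2 at an unadjusted p under 0.05 by edgeR. The edgeR calls in the cycle lists examined were E2f2, an activator of cycle genes, with a log2 fold change of -1.24, Ccnd1, which encodes cyclin D1, with -1.08, and the arrest-linked Tob1 and Gas1 with -1.14 and 1.40. In that comparison edgeR called 3.35% of all genes lower and 6.67% higher, and 19.8% had an unadjusted p under 0.05. Ccnd1 had 125 and 104 CPM in CD106+ cells and 268 and 207 CPM in CD106- cells. Gas1 had 18.6 and 26.6 CPM in CD106+ cells and 9.04 and 7.49 CPM in CD106- cells.

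Among the 26 single cells, 1 met the rule used here for broad expression of the list, 15 or more of the 44 members at 10 CPM or more. It was 1 of the 15 dexamethasone cells (6.67%, exact 95% binomial interval 0.169 to 31.9%, counting error only) and 0 of the 11 saline cells (interval 0 to 28.5%). No label names the animal behind each cell, so cells are not replicates of a treatment and there is no test. The intervals do not compare the treatments. Cells had 215623 to 1787997 counts, with a median of 852850 in dexamethasone cells and 1349765 in saline cells. Thinned to one fixed total the counts of such cells were again 1 and 0.

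The cell was dexamethasone cell 9, with 22 members and 22 of 40 DNA replication genes at 10 CPM or more and a summed member level of 4667 CPM. It held condensin subunits (Ncapd2 at 995, Ncaph at 455 and Ncapg at 289 CPM), Ccna2, the cyclin of S and G2 phases, at 406 CPM, Aurka at 368 CPM, Top2a at 274 CPM and Mki67 at 96.5 CPM. Ccnb1, Plk1, Cdc20 and Bub1 had no counts in any dexamethasone cell. Cell 9 thus lacked them, and it also had no counts for Ccnb2, Kif11, Prc1 or Anln, so the rule does not show that it was in mitosis. Its 7 matrix fibroblast markers were all at 10 CPM or more and summed to 25471 CPM. Of 7 endothelial markers 3 were at 10 CPM or more, with Pecam1 at 175 CPM. In cell 9 the 5 mesenchyme markers summed to 3271 CPM, with 3 at 10 CPM or more and Col1a1 at 3.37 CPM. Whether it was 1 cell or 2 captured together was not tested, and no doublet caller was run.

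Dexamethasone cell 14 came next with 12 members. It had the highest summed member level of all cells, 5987 CPM, of which Prc1, the crosslinker of the spindle midzone, gave 3077 CPM, with Ncapg at 816, Nusap1 at 628 and Mki67 at 453 CPM. It held 8 replication genes at 10 CPM or more, and 7 of its 8 erythroid markers reached 10 CPM, summing to 186700 CPM, beside 4134 CPM of mesenchyme markers. Together cells 9 and 14 held 66.9% of the summed member level of the 15 dexamethasone cells, and without them the highest count of members was 5.

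In saline cells the members were spread more evenly, with 38.1% of the summed level in the highest 2 cells. Saline cell 11, with all 6 smooth muscle markers at 10 CPM or more, had 8 members, among them Mki67 at 136, Anln at 77.8 and Cdk1 at 65.9 CPM. Saline cell 4 had 6, led by Cdk1 at 371, Kif20a at 291 and Cenpf at 240 CPM. All 6, namely Ccnb2, Cdk1, Cenpf, Nuf2, Kif20a and Anln, were also at 10 CPM or more in saline cell 11. Saline cell 10 had 6 as well, led by Cdk1 at 386 CPM, the highest Cdk1 level of any cell. Saline cell 2 had 6 members, led by Smc2 at 562 CPM, and 21 replication genes at 10 CPM or more.

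The lowest, median and highest summed member levels were 1.90, 285 and 5987 CPM over dexamethasone cells and 24.9, 539 and 1395 CPM over saline cells, and the ranges overlapped. Mki67 reached 10 CPM in 2 cells of each group. At 10 CPM 15 members were in no dexamethasone cell and 28 were in no saline cell, and Hmgb2, a chromatin protein not limited to mitosis, was the most widely found member, in 8 cells of each group. Cells just under the rule of 15 were few, with 1 dexamethasone cell and 1 saline cell between 8 and 14 members.

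**Figure D5:**
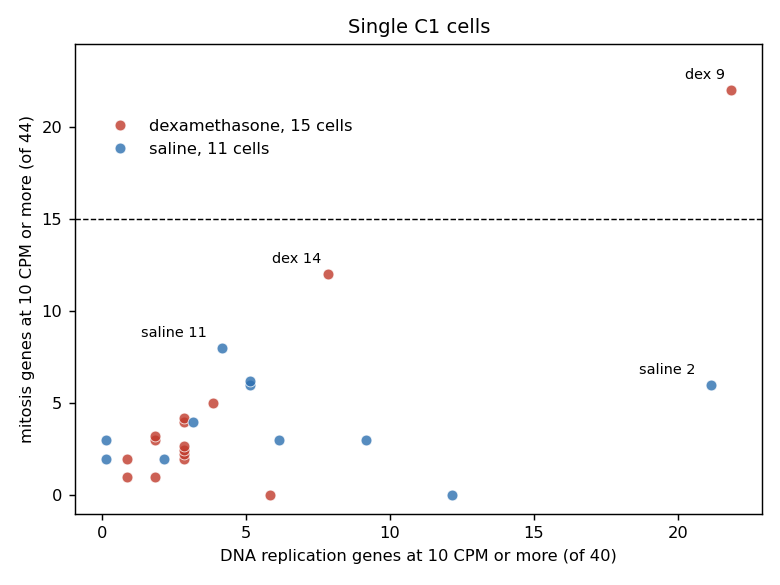
Each of the 26 single cells by the number of DNA replication genes (horizontal axis, of 40) and mitosis genes (vertical axis, of 44) at 10 CPM or more, with dexamethasone cells shifted slightly left, saline cells slightly right and coinciding cells stacked slightly upward. The dashed line marks 15 mitosis genes; dexamethasone cell 9 with 22 lies above it, and dexamethasone cell 14 with 12 and saline cell 11 with 8 come next.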

How the data were processed

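The RNA data comprise 11 bulk libraries and 26 single cells. The authors deposited expected counts per gene symbol in 4 tables; the values show this, since 5.35 to 9.21% of values in bulk libraries were not whole. The submitters' processing notes name mm10 as build and, with no roles, Partek, TopHat2, Trim Galore, HOMER, Bowtie2 and MACS2. How reads were counted, and whether by strand, is not given in the sources used here. Reads shared between loci may lie behind fractional counts, which makes Ncapg, Ccna2 and Kif20a uncertain. Of bulk counts, 0.902 to 9.83% belonged to Rn45s, a ribosomal RNA precursor. The CD106+ dexamethasone table has 1 column, whose code matches no label, and it was taken as that sample because it alone is described with that table.

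Before testing, expected counts were rounded. Genes passing filterByExpr were scaled by TMM and tested with edgeR's quasi-likelihood test (robust), with Benjamini-Hochberg adjustment over all genes tested at 0.05 and only the groups compared in each fit (R 4.3.3, edgeR 4.0.16, limma 3.58.1). The SE was taken from the fold change and its F statistic. The lone CD106+ dexamethasone library was set against the CD106+ mean as a log2 ratio of CPM, with 1 added as pseudocount, over genes with a mean of at least 1 CPM, and single cells by counts of members at 10 CPM or more. Levels are CPM of library totals and were not compared between genes, since no transcript lengths were used. Alternatives were other scalings and filters, DESeq2 1.42.0, a replicate block, removal of Rn45s, covariates for Xist and chondrocyte markers, each library left out, and, added after seeing the data, versions of the fit of all libraries and its contrast of dexamethasone effects.

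The 44 members, their 8 roles and the 8 pathway and 11 cell type lists were chosen with earlier results of these data known. Full statistics were given for members past the threshold and otherwise among the 10 smallest p, and up to 4 genes of each pathway list by smallest p. On simulated counts with planted changes, edgeR found 11.3% of log2 changes of 1 and 68.1% of those of 2 in the mesenchyme design (10892 genes, 6 false of 79 calls), and in the CD106 design 9.28% and 70.8% (12080 genes, 3 false of 80 calls). Replicate pairs all differed beyond sampling noise (chi-square per degree of freedom 9.15 to 37.9). Plots were made with matplotlib 3.10.9.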

Additional observations from a re-analysis of the deposited data

Results flagged for a closer look

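In the 4 dexamethasone mesenchyme pools a single pool stood far from the rest for 4 members. Ncaph was lowest in pool 4 at 9.80 CPM and Ccnb1 was lowest in pool 1 at 7.58 CPM. Ttk, a spindle checkpoint kinase, and Anln were highest in pool 3, at 16.2 and 60.8 CPM. The gap to the next pool exceeded Dixon's 95% critical value in these 4 of 45 groups examined, and chance gives about 1 in 20.

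For Smc4 the contrast of dexamethasone effects, mesenchyme minus CD106+ cells, was 2.37 on the log2 scale in the edgeR fit of all libraries (adjusted p = 0.0062). With a mesenchyme pool or a CD106+ library left out, or another scaling, it ran from 1.78 to 2.78 (adjusted p 0.0018 to 0.0298). Its CD106+ side rests on 1 dexamethasone library from a separate table, so the difference between sorts has no replicate on that side.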

How the results depend on the processing

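The number of members called lower in mesenchyme was 1, and it was 4 without the filter on low counts, 0 with the Xist covariate, 0 with the chondrocyte covariate and 0 to 5 with a pool left out. Members called higher numbered 0, where 1.95% of all genes were, and 1 by DESeq2, where 1.88% were. With the replicate number as a block, 0 members were called lower and all calls numbered 154 in place of 306; Mki67 then had an adjusted p of 0.0538 by edgeR. The deviations of same-numbered pools correlated at -0.036 and 0.12. With 2 saline pools their deviations mirror each other, so this check cannot settle whether the numbers pair the samples. The block left 0 members called between CD106+ and CD106- cells, where all calls numbered 1276 in place of 1239. The median member log2 fold change in mesenchyme ran from -1.29 to -0.054 with a pool left out. Birc5 turned to 0.16 with the chondrocyte covariate and Cenpe, from -1.61 to 0.17 with a pool left out, to 0.17 without saline pool 2; the cause was not tested. Between CD106+ and CD106- cells, dropping any 1 library kept the median member log2 fold change between 0.066 and 0.32. Each such fit leaves 1 library in a group, so only this effect size is given here. The median log2 ratio of CD106+ dexamethasone was -1.62 on TMM-scaled CPM, in place of -1.76, and members called lower in the fit of all libraries numbered 3 to 7 with a CD106+ library left out, in place of 12. Dexamethasone single cells past the rule numbered 2 at 10 or more members and 0 without cells above 100 CPM of Pecam1, and saline cells 1 at a level of 1 CPM. The contrast of dexamethasone effects called 1 member higher, and 1 or 2 with a dexamethasone mesenchyme pool left out, where 0.603 to 0.851% of all genes were called higher. On simulated counts, changes of 1 on the log2 scale were found in 11.3% of cases in the mesenchyme design and 9.28% in that of CD106+ against CD106- cells.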
